A study of Mus musculus with 9 samples.

Results

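Colon RNA was examined for 9 genes linked to repair of the injured epithelium: *Ly6a*, *Anxa1*, *Clu* and *Il33*, which are linked with fetal-like or alarm responses, and the EGF family genes *Areg*, *Ereg*, *Hbegf*, *Tgfa* and *Egfr*. The list was set by gene name, with no threshold on measured values, and holds 9 of the 27719 genes of the deposited table. Each was found once in the table and all 9 passed the filter on low counts. Each library came from the colon of 1 C57BL/6J mouse, and control, DSS and DSS + EA groups held 3 mice apiece. Dextran sodium sulfate (DSS), a detergent-like polymer that injures the colon lining, was drunk at 2.5% for 7 days by the DSS and DSS + EA groups, and control mice drank distilled water. In the DSS + EA group, electroacupuncture (EA, a weak current through needles) was given at both ST36 points for 30 minutes daily, at 2 Hz and 0.2 mA, for 5 days from day 5 of modeling. Control and DSS mice were held for the same time without current. The groups therefore differ in injury and in current, and nothing here separates the needle from the current.

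After injury, surviving crypt cells of the gut can switch on genes of the fetal epithelium, among them *Ly6a* (Sca-1, a surface protein also found on blood vessel and immune cells), *Anxa1* (a phospholipid-binding protein that damps inflammation) and *Clu* (a secreted chaperone that marks revival stem cells). *Il33* encodes an alarmin kept in the nucleus of stromal and epithelial cells. Amphiregulin, epiregulin, HB-EGF and TGF-alpha are made as membrane proteins, cut off by proteases such as ADAM17, and bind the receptor encoded by *Egfr*, which signals through ERK to division and survival.

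*Ly6a* belongs to a family of genes with similar coding sequences, between which the reads of 1 gene may have been divided. The first 75 coding bases of the reference transcripts are shown because *Ly6a* was the member that was higher in DSS + EA than in DSS mice, and capitals mark bases that differ from *Ly6a*.
Ly6a: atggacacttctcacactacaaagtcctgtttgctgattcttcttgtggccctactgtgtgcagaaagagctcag
Ly6c1: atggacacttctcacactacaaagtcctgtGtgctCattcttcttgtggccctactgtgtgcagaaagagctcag
Ly6i: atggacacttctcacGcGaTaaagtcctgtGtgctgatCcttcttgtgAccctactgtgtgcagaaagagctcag
Ly6g: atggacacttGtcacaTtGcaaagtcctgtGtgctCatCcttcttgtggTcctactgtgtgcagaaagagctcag
In this stretch, *Ly6c1* differed from *Ly6a* at 2 bases, *Ly6i* at 6 and *Ly6g* at 7. Over the whole aligned coding sequence, identity to *Ly6a* was 86.4% for *Ly6i*, 83.2% for *Ly6g*, 82.0% for *Ly6c1*, 81.7% for *Ly6c2* and 52.6% for *Ly6e*. How the authors' counting treated reads shared by these genes is not given in the sources used here.

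Library totals ran from 2627695 to 4235576 counts, so that 3 counts corresponded to 0.708 to 1.14 CPM (counts scaled to a common library size). Levels below are CPM on library sizes scaled by TMM. Group differences are log2 fold changes from edgeR's quasi-likelihood test over the 12566 genes tested, with Benjamini-Hochberg adjusted p-values, and a gene is called where the adjusted p is under 0.05. SE is the standard error of a log2 fold change, and p-values test a group difference against the spread estimated between these mice. Cell markers differed between the libraries. In the DSS group the summed level of 8 neutrophil markers ran from 4400 to 26110 CPM. It was 22.5 to 157 CPM in control mice and 1184 to 1581 CPM in DSS + EA mice. *Ly6g* alone gave 127, 148 and 16.4 CPM of it in control mice and 504 to 1030 CPM in DSS + EA mice. The sum of 8 fibroblast markers was 4079 to 6761 CPM in DSS, 759 to 826 CPM in control and 1615 to 1704 CPM in DSS + EA mice. The sum of 8 macrophage and monocyte markers was 1346 to 2550 CPM in DSS mice, 440 to 453 CPM in control mice and 874 to 956 CPM in DSS + EA mice. Epithelium markers (10 genes) ran from 1083 to 4514 CPM in DSS mice, from 5849 to 6957 CPM in control mice and from 5030 to 6402 CPM in DSS + EA mice, and none of them was at 0 throughout a group. Besides, 8 genes of the pancreatic acinar cell summed to 25780 CPM in DSS + EA mouse 2 and 13210 CPM in DSS + EA mouse 3, against 477 CPM in DSS + EA mouse 1 and 41.4 to 260 CPM in the other 6 mice. The results are given below also without both of these libraries and without the acinar genes. The part of the other marker differences in the results was not tested, and fewer cells of a type and less RNA per cell cannot be told apart in these bulk samples.

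**Figure D1:**
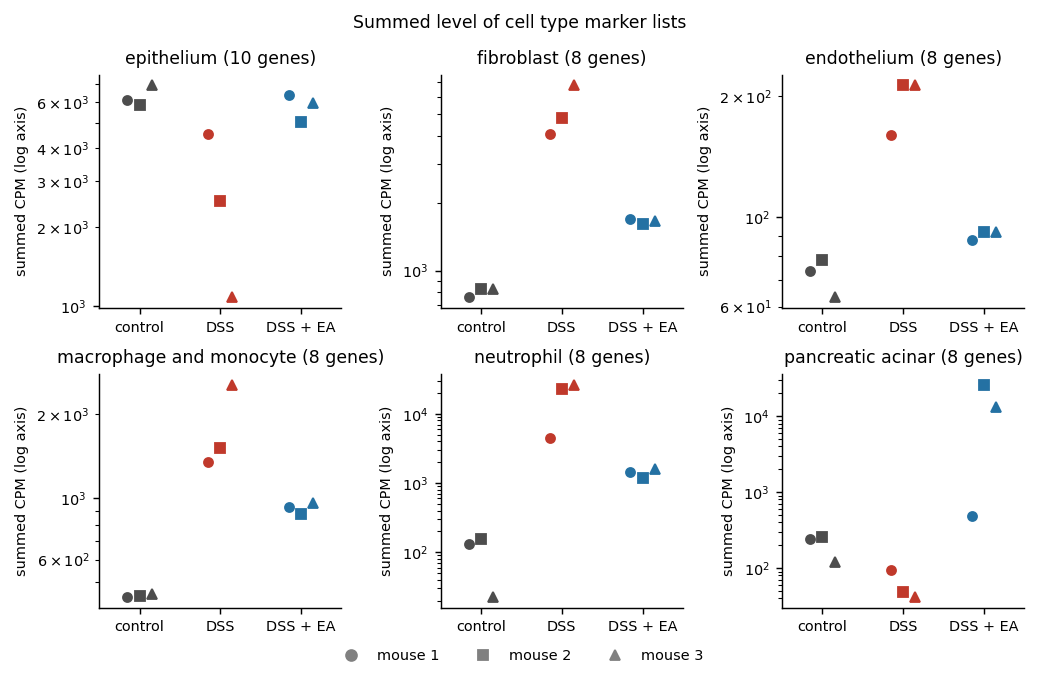
Summed TMM-scaled CPM of the marker lists (vertical log axis) by group, with 1 symbol per mouse. DSS mice are highest for fibroblast, macrophage and neutrophil markers and lowest for epithelium markers, and DSS + EA mice 2 and 3 are far above the rest for pancreatic acinar markers.

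Compared with the control group, 7 of the 9 genes were higher in the DSS group and 0 were lower, where 40.9% of all tested genes were called, 21.5% higher and 19.5% lower. Those 7 were *Ly6a*, *Anxa1*, *Clu*, *Il33*, *Ereg*, *Hbegf* and *Egfr*. The median log2 fold change over all 9 genes was 1.55, against 0.02 over all genes tested. Between the DSS + EA and DSS groups, which share the DSS mice with the first comparison, *Ly6a* was higher and *Anxa1*, *Il33*, *Ereg* and *Egfr* were lower in the DSS + EA group, where 35.5% of all tested genes were called, 17.2% higher and 18.3% lower. Against the control group, DSS + EA mice had higher *Ly6a*, *Anxa1*, *Il33* and *Ereg*, where 3.64% of genes were called, 3% higher and 0.637% lower. Without DSS + EA mice 2 and 3, a setting added after seeing the data, 6 genes were called with DSS, 0 for DSS + EA against DSS (edgeR, with 1 DSS + EA mouse assumed to vary like the other groups) and 1, *Ly6a*, against control. Without the 8 acinar genes in the counts, 7, 6 and 2 were called. The groups did not overlap in 6, 5 and 4 of the 9 genes in these comparisons, and in 52%, 47.4% and 32.2% of all genes. Under the thresholds of the study (a log2 fold change beyond 2.5 and an unadjusted P under 0.01) 2, 0 and 3 of the 9 passed, against 10.2%, 6.41% and 2.08% of all genes.

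**Figure D2:**
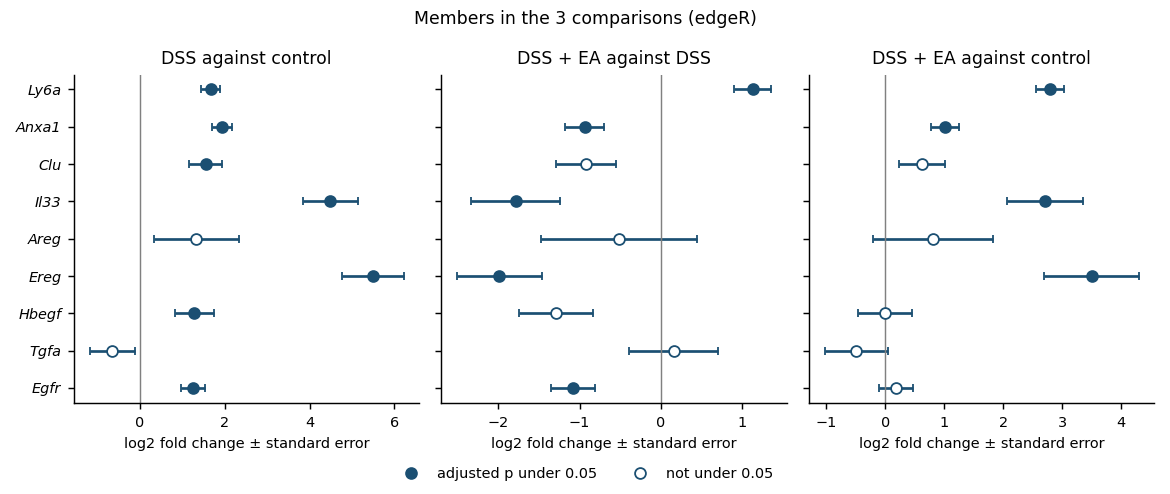
Log2 fold change (horizontal axis, with standard error bars) of the 9 genes in the 3 comparisons, filled where the adjusted p is under 0.05. *Ly6a* is the 1 gene with a filled positive value for DSS + EA against DSS, at 1.13.

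*Ly6a* rose with DSS and was higher again with EA. Control mice had 309, 407 and 418 CPM, DSS mice 1375, 1123 and 1097 CPM, and DSS + EA mice 2541, 2004 and 3331 CPM, so that no group overlapped with another. The mean was 378 ± 59.7 CPM in control mice, 1198 ± 154 CPM in DSS mice and 2625 ± 667 CPM in DSS + EA mice (SD, n = 3). The log2 fold change was 1.67 for DSS against control (SE 0.23, adjusted p = 0.000572, edgeR), 1.13 for DSS + EA against DSS (0.23, adjusted p = 0.00547, edgeR) and 2.80 for DSS + EA against control (0.24, adjusted p = 0.00112, edgeR). Without both mice that carried the pancreatic markers, the value for DSS + EA against DSS was 1.10 and no longer called (adjusted p = 0.0658, edgeR). Summed endothelium markers (8 genes), from cells that also carry *Ly6a*, ran from 63.2 to 78.1 CPM in control mice. They ran from 160 to 213 CPM in DSS mice and from 87.8 to 92.0 CPM in DSS + EA mice. The epithelium marker sum given above was lowest in DSS mice. The part of either cell type in the *Ly6a* values was not tested. Leaving out any 1 of the 9 mice kept the call in all 3 comparisons, with adjusted p at most 0.026 for DSS + EA against DSS.

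*Ly6a* was not alone in its family in rising with EA. *Ly6e*, a related surface protein gene with 52.6% identity to *Ly6a*, had 528, 696 and 658 CPM in control mice, 504, 458 and 490 CPM in DSS mice, and 1770, 1560 and 2091 CPM in DSS + EA mice. It did not pass the test with DSS (log2 fold change -0.37, adjusted p = 0.137, edgeR) and was higher in DSS + EA than in DSS mice by 1.89 on the log2 scale (SE 0.19, adjusted p = 0.000337, edgeR), with no overlap. *Ly6c1*, an endothelial marker, rose with DSS by 3.13 (adjusted p = 3.06e-05, edgeR) and was lower with EA than with DSS by -0.74 (adjusted p = 0.0267, edgeR). *Ly6c2* was not called in any comparison, and its log2 fold change with DSS was 0.76 (adjusted p = 0.37, edgeR). Of the 8 tested genes of the Ly6 list, 4 were higher and 1 lower with DSS, and with EA against DSS 2 were higher (*Ly6e* and *Ly6g6c*) and 2 lower (*Ly6c1* and *Gpihbp1*, which anchors lipoprotein lipase on capillaries). These counts stand beside 40.9% and 35.5% of all genes called, and the list's median was 1.30 and then -0.60.
*Ly6g*, a neutrophil gene, was counted far more often than another such gene in control mice. Control mice 1, 2 and 3 had 504, 449 and 43 counts of *Ly6g*, while *S100a8*, which encodes a neutrophil calprotectin subunit, had 6, 6 and 1 counts in the same libraries, and both were lowest in mouse 3. In DSS mice *Ly6g* reached 1280 to 2151 CPM and in DSS + EA mice 504 to 1030 CPM. *Ly6i*, shown for its sequence, had 1, 0 and 0 counts in control mice and 5, 9 and 146 counts in DSS mice.

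**Figure D3:**
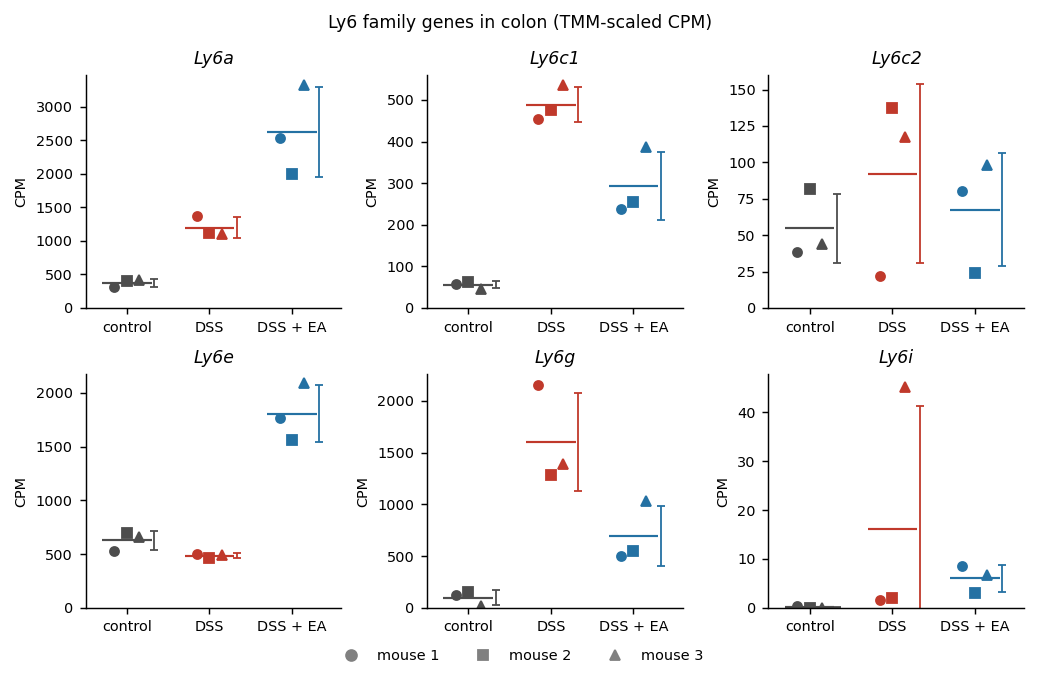
TMM-scaled CPM (vertical axis) of 6 Ly6 family genes by group; symbols are mice, horizontal lines are means and bars are SD (n = 3), cut at 0. *Ly6a* and *Ly6e* are highest in the DSS + EA group, whereas *Ly6c1* and *Ly6g* are highest in the DSS group.

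*Anxa1* rose with DSS and was lower with EA. Values were 195, 290 and 261 CPM in control mice, 974, 862 and 1022 CPM in DSS mice, and 387, 454 and 659 CPM in DSS + EA mice, and the 3 groups did not overlap. Its log2 fold change was 1.94 for DSS against control (SE 0.24, adjusted p = 0.000334, edgeR), -0.94 for DSS + EA against DSS (0.24, adjusted p = 0.0139, edgeR) and 1.01 for DSS + EA against control (0.24, adjusted p = 0.0496, edgeR). *Anxa1* is also abundant in neutrophils and macrophages, whose marker sums were also highest in DSS mice and lowest in control mice. Their part in the *Anxa1* values was not tested. Without DSS + EA mouse 1 or mouse 2 the second difference was -0.79 and -0.84 and was not called (adjusted p = 0.0524 and 0.0586, edgeR). The third was not called in 7 of 9 fits that left out a mouse, with adjusted p up to 0.241.

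*Clu* had 20.4, 10.2 and 7.24 CPM in control mice, 28.7, 46.7 and 36.8 CPM in DSS mice, and 13.6, 23.0 and 23.0 CPM in DSS + EA mice. It was higher with DSS by 1.55 on the log2 scale (SE 0.38, adjusted p = 0.00993, edgeR), with no overlap between the groups. In DSS + EA mice every value lay under the lowest DSS value, but the difference of -0.92 (0.37, adjusted p = 0.0775, edgeR) did not pass the test.

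*Il33*, whose product signals to type 2 lymphocytes and regulatory T cells through the receptor encoded by *Il1rl1*, showed a wide spread. Control mice had 1.77, 4.95 and 4.57 CPM, DSS mice 37.4, 46.3 and 165 CPM, and DSS + EA mice 30.9, 20.8 and 20.5 CPM. DSS mouse 3 stood well above the rest of its group, and it also had the lowest epithelium sum and the highest fibroblast, macrophage and neutrophil sums. For DSS against control its log2 fold change was 4.49 (SE 0.65, adjusted p = 0.000673, edgeR), -1.79 with EA against DSS (0.55, adjusted p = 0.0294, edgeR) and 2.71 with EA against control (0.64, adjusted p = 0.0488, edgeR). Without DSS mouse 3 the first value was 3.52 and still called (adjusted p = 0.000299, edgeR), while the second was -0.80 and was not called (adjusted p = 0.0966, edgeR), nor was it called without DSS + EA mouse 1, 2 or 3 (adjusted p = 0.0523, 0.0908 and 0.0944, edgeR). The third was not called in 7 of 9 fits that left out a mouse, with adjusted p up to 0.214. *Il1rl1* itself had 2.78, 8.90 and 7.62 CPM in control mice, 149, 40.5 and 39.9 CPM in DSS mice, and 32.1, 38.6 and 37.5 CPM in DSS + EA mice. It was higher with DSS by 3.59 (adjusted p = 0.00137, edgeR), and the difference with EA against DSS, -1.09, did not pass (adjusted p = 0.128, edgeR). In the receptor and type 2 list, *Il4*, *Il5*, *Il9*, *Il13*, *Il25*, *Gata3*, *Foxp3* and *Ikzf2* had too few counts to be tested. *Il9* and *Il13* had 0 counts in every library. Of the 5 tested genes of that list, 3 were higher with DSS (*Il1rl1*, *Rora* and *Myd88*) and 1, *Rora*, lower with EA against DSS. Of all genes, 21.5% were called higher in the first comparison and 18.3% lower in the second, and the list's median was 1.38 and then -1.09.

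Of the 4 receptor ligands, *Ereg* had the largest fitted change with DSS. Control mice had 1, 3 and 1 counts, DSS mice 80, 189 and 28 counts, and DSS + EA mice 15, 15 and 28 counts. In CPM, DSS mice had 25.6, 40.5 and 8.65 and DSS + EA mice 4.54, 5.56 and 8.83, so that the last DSS + EA mouse lay above the lowest DSS mouse. Because the control group is near zero, the fitted fold change depends on the prior count and the ratio of pooled counts was taken, at 51.8 for DSS against control with an exact 95% counting interval of 21.9 to 161, and 12.2 for DSS + EA against control (4.92 to 38.9). edgeR called *Ereg* higher with DSS (log2 fold change 5.49, SE 0.73, adjusted p = 0.000437) and lower with EA against DSS (-1.99, 0.52, adjusted p = 0.0159), the latter not called without DSS mouse 2 (adjusted p = 0.0651), DSS + EA mouse 1 (0.0583) or mouse 2 (0.0552). Without control mouse 2 the value with DSS was 6.17 (adjusted p = 0.00233) and the value against control with EA was 4.22 and not called (adjusted p = 0.0975). Against control, DSS + EA mice were higher by 3.50 (SE 0.80, adjusted p = 0.0435, edgeR), a call lost in 6 of 9 fits that left out a mouse. Its nearest neighbour in pattern was *Hgf*, a growth factor of stromal cells.
*Areg* passed in no comparison, and its level turned on single mice. Control mice had 7.57, 3.96 and 18.7 CPM, DSS mice 11.2, 57.2 and 4.63 CPM, and DSS + EA mice 40.2, 5.56 and 5.99 CPM. The high values lay in DSS mouse 2 and DSS + EA mouse 1, and all groups overlapped. Without DSS mouse 2 the DSS against control difference went from 1.33 to -0.30. In GENCODE M21, *Anxa1*, *Ereg*, *Tgfa* and *Egfr* each overlap 1 gene on the opposite strand, and without a stated use of strand such reads cannot be told apart. *Areg* and *Ereg* lie next to each other on mouse chromosome 5 (GRCm38, 91139599 to 91148432 and 91074622 to 91093646).

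*Hbegf* had 13.9, 10.6 and 16.0 CPM in control mice, 49.5, 38.0 and 11.1 CPM in DSS mice, and 14.5, 10.0 and 15.8 CPM in DSS + EA mice. DSS mouse 3 overlapped with the control group. The call with DSS (log2 fold change 1.29, SE 0.46, adjusted p = 0.0453, edgeR) was lost in 8 of 9 fits that left out a mouse, the exception being DSS mouse 3. With EA against DSS the difference was -1.29 and not called (adjusted p = 0.0508, edgeR). DESeq2 called it (adjusted p = 0.0397), and so did edgeR without DSS mouse 3 (adjusted p = 0.00287). The other 8 fits that left out a mouse did not. It was also called with RLE normalization, library totals, no filter, a minimum mean of 20 counts, or the acinar genes left out. A fit to the compared groups alone did not call it.
*Tgfa*, at 3.53, 4.95 and 7.62 CPM in control mice, 5.11, 3.65 and 1.24 CPM in DSS mice and 1.82, 4.45 and 5.04 CPM in DSS + EA mice, overlapped between all groups. It passed in no comparison.

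*Egfr*, the shared receptor, was higher in all DSS mice than in any other mouse. Control mice had 6.56, 7.58 and 8.38 CPM, DSS mice 13.4, 23.6 and 16.1 CPM, and DSS + EA mice 9.08, 7.05 and 9.14 CPM. With DSS its log2 fold change was 1.25 (SE 0.28, adjusted p = 0.00585, edgeR) and -1.08 with EA against DSS (0.27, adjusted p = 0.0138, edgeR), and the value against control with EA was 0.18. Without DSS + EA mouse 2 the second value was -0.93 and not called (adjusted p = 0.0553, edgeR). Among the other receptors, *Erbb2* had 20.9, 14.8 and 17.9 CPM in control mice and 3.19, 5.79 and 0.618 CPM in DSS mice, and was lower with DSS by -2.40 (adjusted p = 0.00855, edgeR). *Erbb3* was lower with DSS by -1.54 (adjusted p = 0.0223, edgeR). Both were expressed in DSS + EA mice between the other groups on average, and neither passed with EA against DSS. *Erbb4* was not counted in any library.

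**Figure D4:**
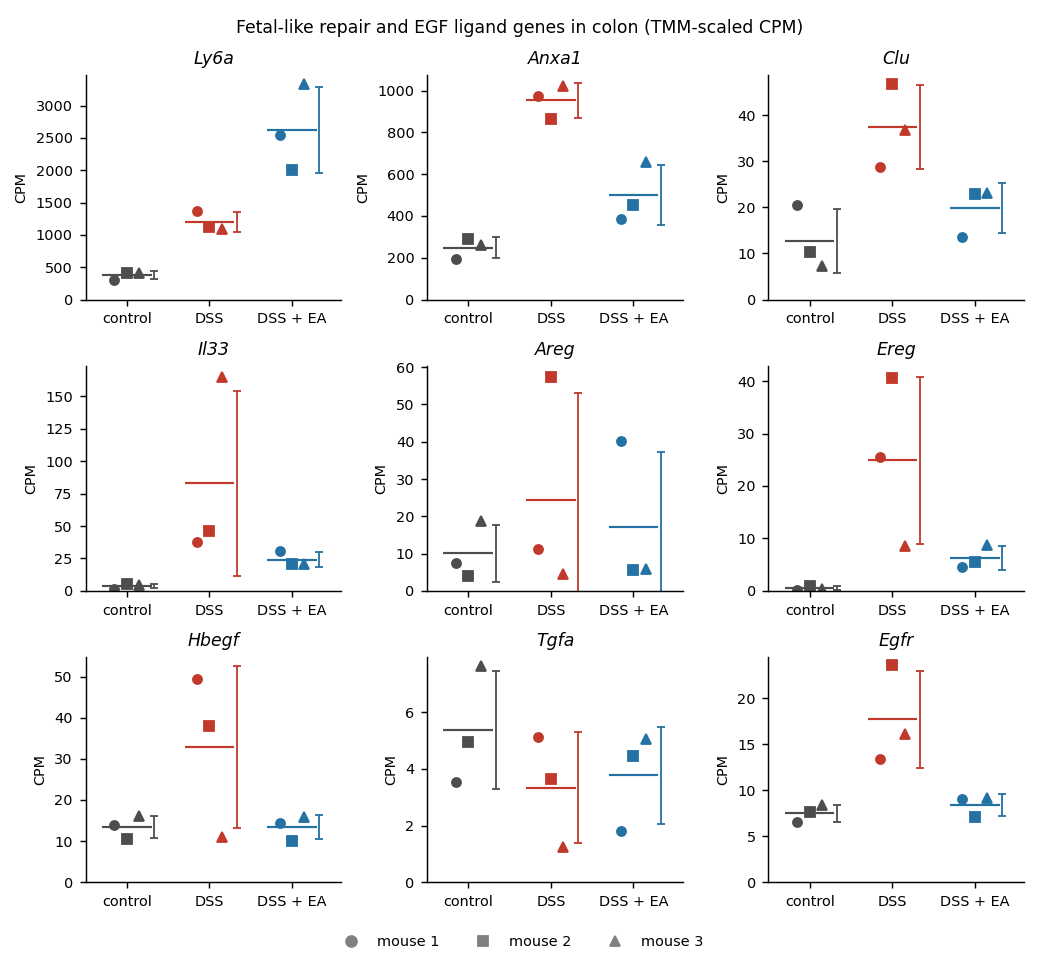
TMM-scaled CPM (vertical axis, from 0) of the 9 genes by group; symbols are mice, horizontal lines are means and bars are SD (n = 3), cut at 0. *Egfr* and *Anxa1* are highest in every DSS mouse, *Ly6a* in every DSS + EA mouse, and *Areg* has 1 high mouse in each of the DSS and DSS + EA groups.

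*Nrg1*, a ligand of *Erbb3* and *Erbb4* made by stromal cells, had 3, 5 and 7 counts in control mice, 92, 205 and 79 in DSS mice and 10, 22 and 16 in DSS + EA mice. It was higher with DSS by 4.33 (adjusted p = 0.00019, edgeR) and lower with EA against DSS by -2.61 (adjusted p = 0.00176, edgeR). *Btc*, another *Egfr* ligand, did not pass in any comparison, and *Egf*, *Epgn*, *Nrg2*, *Nrg3* and *Nrg4* had at most 6 counts in a library and were not tested.

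**Figure D5:**
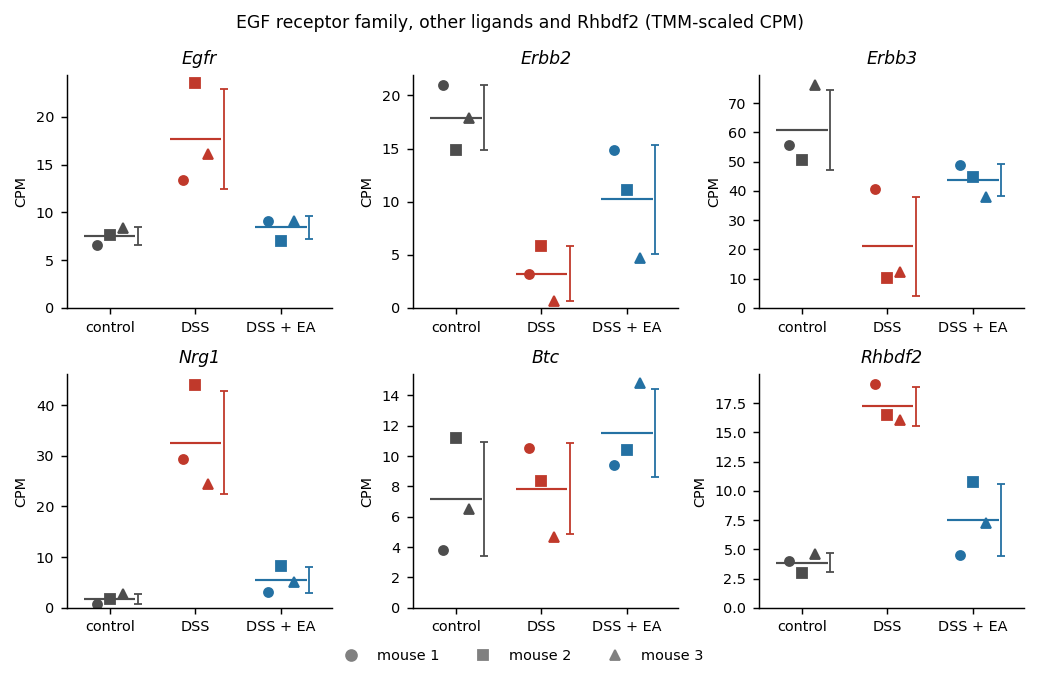
TMM-scaled CPM (vertical axis, from 0) of receptor genes, *Nrg1*, *Btc* and *Rhbdf2* by group, with symbols for mice, lines for means and bars for SD (n = 3), cut at 0. *Egfr*, *Nrg1* and *Rhbdf2* are highest in DSS mice and *Erbb2* and *Erbb3* are lower there.

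Among genes for ligand release and receptor control, *Rhbdf2* (a partner that brings ADAM17 to the cell surface) was higher with DSS by 2.16 (adjusted p = 0.000996, edgeR) and lower with EA against DSS by -1.21 (adjusted p = 0.0153, edgeR). *Cblb*, a ubiquitin ligase, was higher by 2.15 and lower by -2.31. In this list of 14 tested genes, 5 were higher and 0 lower with DSS, near the 40.9% of all genes called in either direction. With EA against DSS 0 were higher and 5 lower, near the 35.5% of all genes called in either direction. By direction, 21.5% of all genes were called higher with DSS and 18.3% lower with EA against DSS. The median log2 fold change of the list was 0.65 and then -0.63, against 0.02 and -0.02 over all genes.
Of 8 tested ERK feedback genes, 3 rose with DSS (*Spry1*, *Spred1* and *Spry4*, at 1.74, 1.77 and 2.28) and 4 lower with EA against DSS, *Etv4* among them at -1.53. The first count is no larger a share than the 40.9% of all genes called with DSS in either direction, and the second stands beside 35.5%. By direction, 21.5% of all genes were called higher in the first comparison and 18.3% lower in the second. The list's median was 0.84 and then -1.49.
The other fetal-like list had 13 tested genes. With DSS 7 were higher and 0 lower, and with EA against DSS 3 were lower and 0 higher, where 40.9% and 35.5% of all genes were called. The second count is thus a smaller share than that of all genes called in either direction. Of all genes, 21.5% were called higher in the first comparison and 18.3% lower in the second. The list's median was 1.52 and then -0.46. *Plaur* (the urokinase receptor) had a log2 fold change of 3.84 then -2.07, and *Spp1* (osteopontin) one of 5.03 then -2.72, both in DSS mice the highest. *Msln* was higher with DSS (ratio of pooled counts 15.8, exact 95% counting interval 7.46 to 40.2).
A YAP list of 8 tested genes held targets and also *Yap1*, *Wwtr1* and *Tead1*, which are parts of the pathway itself. DSS against control gave 7 higher and 0 lower, with *Wwtr1* and *Tead1* among the higher. DSS + EA against DSS gave 0 higher and 6 lower, with *Wwtr1* and *Tead1* among the lower. Of all genes, 21.5% were called higher in the first comparison and 18.3% lower in the second. The list's median was 1.78 and then -1.91. *Axl* had log2 fold changes of 1.87 and -1.23, *Cyr61* of 1.82 and -1.99, and *Ctgf* of 1.40 and -3.17. *F3* was higher with DSS by 1.24, and its difference with EA against DSS, -0.49, did not pass (adjusted p = 0.0899, edgeR). *Plaur*, *Spp1* and *Axl* are also made by macrophages, and *Ctgf* and *Cyr61* by fibroblasts. The fibroblast and macrophage marker sums given above were also highest in the DSS mice, and their part in these list counts was not tested.

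The 250 bases before a RefSeq start (the first of 2 for *Il33*) were read on the plus strand of GRCm38.p6. They are printed for *Il33* and *Egfr*, each called higher with DSS, and for *Areg*, which did not pass. Capitals mark a TEAD motif (GGAATG, or CATTCC on the other strand) in *Il33* and a CRE (TGACGTCA) in *Areg*. Such a match is a description of letters, found for TEAD in 12.6% and for CRE in 1.55% of 32851 promoter windows. The TEAD letters also occur in the window of the second *Il33* start (chr19:29945540-29945789) and in that of *Anxa1*, neither of which is printed, because both lie inside the gene as GENCODE M21 annotates it.
Il33, chr19:29924863-29925112: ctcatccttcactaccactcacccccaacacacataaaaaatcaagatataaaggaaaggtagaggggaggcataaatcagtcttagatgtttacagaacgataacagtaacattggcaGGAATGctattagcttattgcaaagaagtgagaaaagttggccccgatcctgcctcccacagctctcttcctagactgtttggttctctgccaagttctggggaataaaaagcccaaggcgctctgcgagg
Areg, chr5:91139349-91139598: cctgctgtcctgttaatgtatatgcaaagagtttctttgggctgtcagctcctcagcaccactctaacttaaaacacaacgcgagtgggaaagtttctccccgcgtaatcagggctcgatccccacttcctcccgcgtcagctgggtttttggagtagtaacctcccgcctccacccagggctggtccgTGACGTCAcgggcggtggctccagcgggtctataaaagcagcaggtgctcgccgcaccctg
Egfr, chr11:16751953-16752202: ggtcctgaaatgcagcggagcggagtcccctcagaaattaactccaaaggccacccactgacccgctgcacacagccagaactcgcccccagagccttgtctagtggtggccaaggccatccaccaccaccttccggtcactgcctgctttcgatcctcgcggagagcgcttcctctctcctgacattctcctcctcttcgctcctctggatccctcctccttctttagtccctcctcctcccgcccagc
*Il33* spans chr19:29925114-29960718 and *Egfr* chr11:16752203-16918158, both on the plus strand. The *Egfr* window held neither of these letters nor an AP-1 site (TGANTCA, in 6.75% of windows). A window read for *Tgfa* held none of these motifs either. No window was read for *Ly6a*, *Clu*, *Ereg* or *Hbegf*.

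By likeness of pattern (the root mean square difference of centred log2 CPM over the 9 libraries, among 8726 other genes), the nearest genes were *Trim15* and *Ada* to *Ly6a*, *S100a11* and *Dtx4* to *Anxa1*, *Col27a1* and *Pcdhgc3* to *Clu*, *Ms4a6d* and *Arg1* to *Il33*, *Cxcl14* and *Ifrd1* to *Areg*, *Hgf* and *Prss22* to *Ereg*, *Shb* and *Phf13* to *Hbegf*, *Mlycd* and *Mtmr4* to *Tgfa*, and *Syt13* and *Wasf2* to *Egfr*. The closest of these was *Syt13* to *Egfr*, at 0.14 on the log2 scale where *Egfr* itself had an SD of 0.56. *Trim15* went from 15.5 CPM in control mice to 41.7 CPM in DSS mice and 111 CPM in DSS + EA mice on average.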

How the data were processed

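Colon RNA was sequenced as full-length cDNA on a Nanopore instrument. The table the authors deposited holds unnormalized counts, 1 row per gene. The submitters' processing notes name the build mm10. The aligner, counter, annotation and use of strand are not given in the sources used here. Of 27733 table lines, 14 without counts were skipped, and 5620 genes had no count in any library. The quasi-likelihood test of edgeR 4.0.16 under R 4.3.3 (TMM, filterByExpr, prior count 0.125) took the group as its single term and used all 9 libraries. DESeq2 1.42.0 was an alternative. Positions and coding sequences came from GENCODE M21 (GRCm38) and promoters from RefSeq. The functions were tested on simulated data. The genes and lists were chosen with earlier results of these data known. All members are named, with called genes of each list drawn from the 3 of smallest p in each direction, and the EGF family in full. *Ly6c2*, *Ly6i* and *S100a8* were added after values were seen. Intervals cover counting error only, because counts were pooled over the 3 mice of a group and the spread between mice was left out. PCR copies were not told apart.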

Additional observations from a re-analysis of the deposited data

How the results depend on the processing

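With DESeq2, RLE normalization, library totals, no filter, a minimum mean of 20 counts, a fit to the compared groups alone, or each mouse left out, 6 to 7 members were called with DSS against control. For DSS + EA against DSS the count ran from 1 to 6 when a mouse was left out, 1 without DSS + EA replicate 2 and 2 without replicate 1, and it was 0 without both mice with pancreatic markers. For DSS + EA against control it ran from 1 to 4, and was 2 with library totals, 1 with the mean count minimum, 1 without both pancreatic-marker mice and 2 without the pancreatic marker genes. The thresholds of the study (log2 fold change over 2.5, P under 0.01) left 2, 0 and 3 members, and 9, 6 and 3 pathway genes where the main counts were 33, 24 and 7. Pathway genes called ran from 28 to 36, 20 to 29 and 2 to 10 when a mouse was left out. Without both pancreatic-marker mice 4 remained for DSS + EA against DSS and 1 against control, and against control there were 4 with the mean count minimum and 11 with only the groups compared.

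Directions reversed for *Areg* without DSS replicate 2 (-0.30 with DSS, by-mouse range to 2.05; 1.11 with EA against DSS, range from -2.11), without DSS + EA replicate 1 (-0.80 against control, range to 1.57) and without both pancreatic-marker mice (0.72), for *Tgfa* (-0.21, -0.14 and -0.85 with EA against DSS, by-mouse range to 0.56) and for *Hbegf* against control, which stayed near 0 (-0.16 to 0.17 by mouse, 0.00 with RLE, -0.04, -0.05 and -0.03). The cause was not tested.

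The labels do not say whether replicate numbers pair the mice. Deviations of same-numbered mice correlated between -0.16 and 0.105. Mice with different numbers were not compared, so these values do not settle whether mice were paired. With the replicate block, 6, 4 and 1 members and 28, 22 and 4 pathway genes were called.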
